A study of Mus musculus with 9 samples.

Results

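Albumin and 9 other abundant carrier proteins of blood plasma were followed at the RNA level in mouse liver, with members chosen by gene name: Alb, Afm, Gc, Afp, Trf, Hpx, Ttr, Rbp4, Ambp and Ahsg. These are 10 of the 32285 gene identifiers in the table, and all 10 were among the 12100 genes that averaged 10 normalized counts or more. A normalized count is the number of reads on a gene divided by a factor that brings the libraries to a common scale.

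The mice were Tet-OFF mice carrying a PB CAG-CreERT2 allele, which drives an inducible Cre from a ubiquitous promoter, a Rosa26-LSL-tTA allele and a Rosa26-tetO-Venus-ires-mCherry allele. Every group received tamoxifen, which removes the stop cassette before tTA. The control group (3 libraries) received tamoxifen alone. The Dox group (3 libraries) was also given doxycycline hyclate and the Tc group (3 libraries) tetracycline hydrochloride, each at 2 mg/mL in drinking water with 10 mg/mL sucrose for 7 days, in male mice that were 4 weeks old at the start. Whether control mice drank sucrose is not given in the sources used here. Both drugs switch tTA off and so silence the Venus transgene, so an effect of the drug and an effect of transgene shut-off cannot be told apart in either comparison with controls. Doxycycline and tetracycline share the tetracycline ring system and differ in the position of a hydroxyl group, and they were compared here at the same dose and time.

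Hepatocytes make nearly all of these proteins and secrete them into the blood. Albumin holds the osmotic pressure of plasma and carries fatty acids, bilirubin and many drugs. The others carry a narrower cargo, such as vitamin D, iron, heme, thyroid hormone or retinol, and several of them (albumin, transferrin, transthyretin, retinol binding protein and fetuin-A among them) are generally classed as negative acute phase proteins in inflammation, whereas hemopexin is a positive one.

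Libraries held 7426136 to 12183041 reads on genes. Library 3 of each group lay close to a weighted sum of libraries 1 and 2 of that group. Fitted on the genes that are not members, the weights were 57% and 41.9% in controls, 61.3% and 34.4% in Dox and 58.9% and 38.2% in Tc. For the 9 members other than Afp, the observed count in library 3 was 0.924 to 1.02 times the predicted one in Dox, 0.952 to 1.12 times in controls and 0.869 to 1.10 times in Tc. p-values over all 9 libraries therefore treat as independent what may not be. The members' differences between Dox and controls are also given from libraries 1 and 2 alone. A fit without Dox library 1 or 2 keeps the other one beside library 3, so its p-values may be too small as well. Nothing in the sources used here says which libraries came from separate animals beyond their numbering as replicates. The 8 hepatocyte markers that are not members summed to 323744 to 383905 normalized counts in controls, 392475 to 501803 in Dox and 366729 to 425478 in Tc. In Dox library 2 Tat held 159364 and Cps1 127213, against 11817 to 21169 and 47780 to 58690 in controls. Apob held 55327 there, against 111037 to 149622 in controls, so the sum is not a measure of hepatocyte content. Of 10 exocrine pancreas markers, 7 were at 0 in every library, and the 7 kidney tubule markers summed to at most 23.2.

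The genes of the albumin family, Alb, Afp, Afm and Gc, derive from a common ancestor and lie on chromosome 5 of the GRCm38 build. In the GENCODE M21 annotation Alb occupies 90460897 to 90476602 on the plus strand, Afp follows 14.1 kb after it at 90490737 to 90508907, and Afm 10.0 kb after Afp at 90518932 to 90553543. Gc lies at 89417522 to 89457898 on the minus strand, 1003 kb before Alb. The promoters of this family are shown because the 4 genes are neighbours or relatives. Their counts were low in Dox library 2, as were those of Ttr, Trf and Ambp, and 43.4% of all tested genes were below every control there. Each promoter is the RefSeq sequence on GRCm38.p6 from 250 bases before to 50 bases after the RefSeq start, read along the gene. Capitals mark GTTAAT or its reverse complement ATTAAC, the half-site letters of the liver factor HNF1.

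Alb, chr5:90460620-90460919, plus strand: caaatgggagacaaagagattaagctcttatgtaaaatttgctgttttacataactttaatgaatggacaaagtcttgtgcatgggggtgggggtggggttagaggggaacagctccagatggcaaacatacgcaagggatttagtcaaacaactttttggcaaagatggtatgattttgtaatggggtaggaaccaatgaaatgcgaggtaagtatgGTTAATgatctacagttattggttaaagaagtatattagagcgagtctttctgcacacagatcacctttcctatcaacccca

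Afp, chr5:90490464-90490763, plus strand: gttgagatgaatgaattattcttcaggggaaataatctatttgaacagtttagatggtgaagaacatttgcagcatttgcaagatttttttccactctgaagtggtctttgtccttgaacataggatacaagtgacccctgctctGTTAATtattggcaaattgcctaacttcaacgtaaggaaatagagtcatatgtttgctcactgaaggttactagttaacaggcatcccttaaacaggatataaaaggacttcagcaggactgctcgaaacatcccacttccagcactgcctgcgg

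Afm, chr5:90518699-90518998, plus strand: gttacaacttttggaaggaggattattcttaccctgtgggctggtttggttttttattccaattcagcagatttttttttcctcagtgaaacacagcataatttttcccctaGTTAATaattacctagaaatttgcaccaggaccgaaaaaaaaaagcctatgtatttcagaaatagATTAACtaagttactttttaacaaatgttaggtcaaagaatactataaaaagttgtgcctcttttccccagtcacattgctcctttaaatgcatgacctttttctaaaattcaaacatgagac

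Gc, chr5:89457849-89458148, minus strand: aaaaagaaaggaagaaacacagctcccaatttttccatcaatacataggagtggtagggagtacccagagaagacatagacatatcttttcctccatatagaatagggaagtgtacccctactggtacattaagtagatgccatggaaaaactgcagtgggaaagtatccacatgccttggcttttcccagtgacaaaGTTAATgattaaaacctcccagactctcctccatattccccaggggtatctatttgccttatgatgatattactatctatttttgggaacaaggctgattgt

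GTTAAT stood on the gene's own strand in all 4: its first base was 32 bases before the RefSeq start in Alb, 105 in Afp, 138 in Afm and 52 in Gc. Afm held ATTAAC as well, 73 bases before the start. The Alb start in GENCODE M21 lies 27 bases downstream of the RefSeq start. On either strand, GTTAAT was found in 7.1% of the 32851 promoters of this length, and in 4 of the 8 members with a promoter entry (Hpx, Rbp4, Ambp and Ahsg lacked it in this window). CCAAT, searched on both strands, was present for all 8 members and in 37.4% of all promoters. TATAAA, also searched on both strands, was present in Afm, Afp and 1 of the 2 Rbp4 entries and in 13.6% of all promoters. The motifs do not overlap each other in these 4 windows. These are matches of letters and nothing more. Trf and Ttr had no entry.

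Alb counts in every Dox library lay below those of every control library, and Alb took a smaller share of the library there. Alb had 1408836, 956160 and 1246646 normalized counts in control libraries 1, 2 and 3, against 607452, 255547 and 456395 in Dox and 576729, 1093211 and 711183 in Tc. All 3 Dox libraries lay below all 3 controls, and Tc libraries 1 and 3 did too, while Tc library 2 lay among the controls. As a percentage of all counts in the library, Alb made up 12.8, 9.90 and 11.9 in controls, 6.07, 2.99 and 5.02 in Dox and 5.78, 9.98 and 6.96 in Tc. The mean share was 11.5% ± 1.47 (SD, n = 3) in controls, 4.70% ± 1.57 in Dox and 7.57% ± 2.17 in Tc. An exact two-sided permutation test of the Alb share gave p = 0.1 for Dox against controls, the smallest p that 3 against 3 allows, and p = 0.2 for Tc against controls and for Dox against Tc. In bulk tissue, fewer hepatocytes and less RNA per hepatocyte cannot be told apart.

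**Figure D1:**
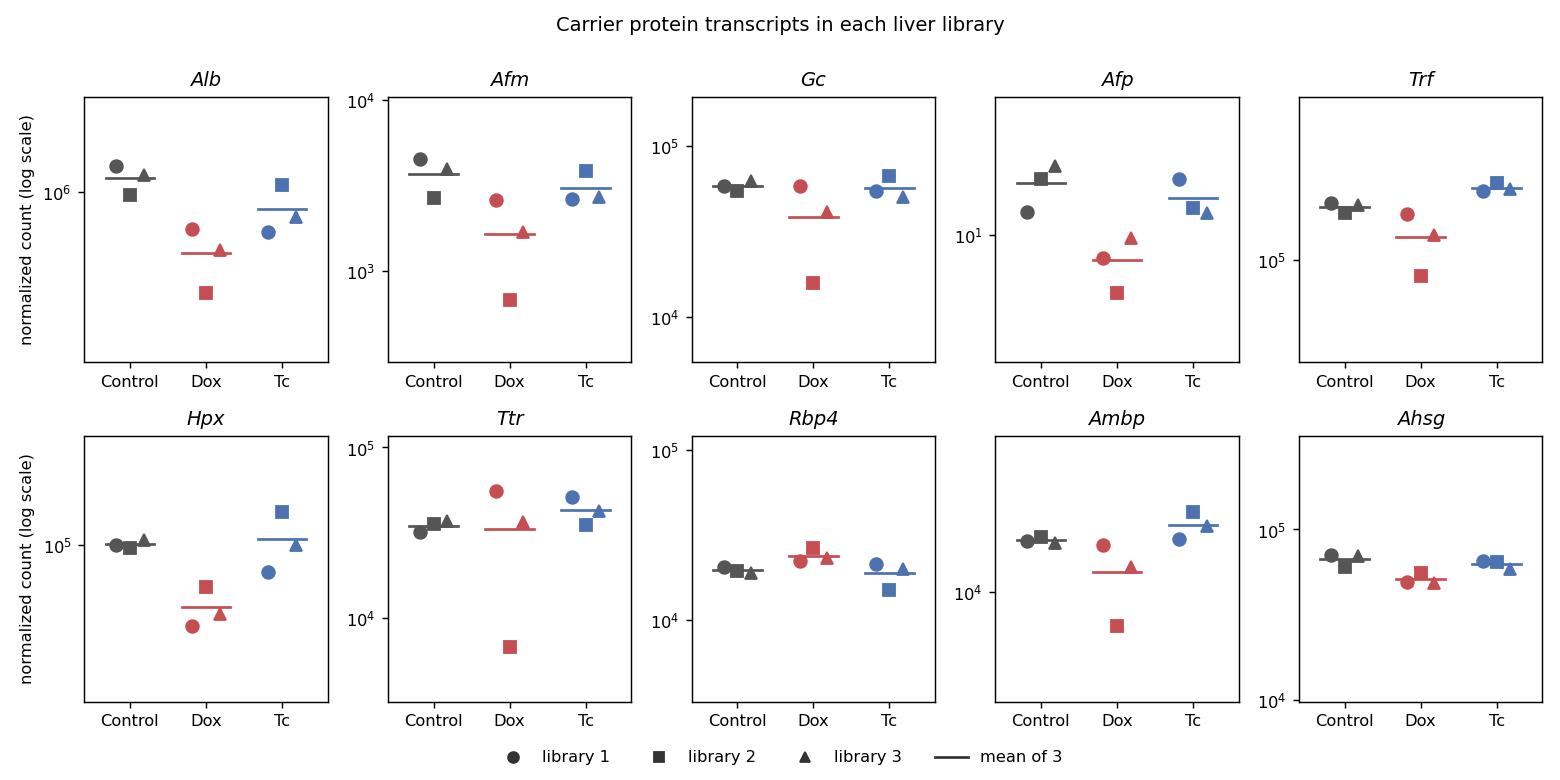
Normalized counts (log axis, the same span of fold in every panel) of the 10 carrier genes in each of the 9 libraries. Points are libraries, marked by number, and bars are group means. The Dox libraries lie below the controls for Alb, Afm, Afp, Trf, Hpx, Ambp and Ahsg, with Dox library 2 far below the other Dox libraries for Ttr and Gc, and above the controls for Rbp4.

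On the log2 scale with a pseudocount of 1, Alb was 1.52 lower in Dox than in controls (log2 difference -1.52, SE 0.74, 2.87-fold lower, limma adjusted p = 0.208). The test is limma over 12100 genes in 1 model of the 9 libraries with Benjamini-Hochberg adjustment, and a gene was called when its adjusted p was under 0.05 and its fold over 2. Alb was thus not called by limma. DESeq2 on the recovered reads gave -1.45 with an adjusted p of 0.00117 for the same comparison. Without Dox library 2 it gave -1.18 with an adjusted p of 0.000137. That fit compares Dox library 1 and its near-mixture, library 3, with the controls, so its p-value may be too small. With libraries 1 and 2 only, the differences were -1.56 by limma (adjusted p = 0.693) and -1.45 by DESeq2 (adjusted p = 0.273). In Tc the log2 difference from controls was -0.64 (95% interval -2.32 to 1.04, limma adjusted p = 0.811), and -0.55 with libraries 1 and 2 only.

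Alb stayed the gene with the most counts in 8 of 9 libraries. In Dox library 2 it ranked 2. It supplied 66.7% to 73.0% of the counts of all 10 members in controls, 50.6% to 58.8% in Dox and 51.8% to 62.7% in Tc, so the groups given either drug did not overlap with the controls in this proportion. The 10 members together made up 16.4% ± 1.4 (SD, n = 3) of the library in controls, 8.35% ± 2.24 in Dox and 13.2% ± 2.47 in Tc. Without Alb, the other 9 made up 4.73% to 5.03% in controls, 2.92% to 4.25% in Dox and 5.38% to 5.94% in Tc. The share of the other 9 was therefore above every control in each Tc library, although the Tc share of Alb was not. Counts of the mitochondrial genome took 0.791% to 1.13% of the library in controls, 1.87% to 2.38% in Dox and 1.01% to 1.69% in Tc. Over genes other than the mitochondrial ones the mean Alb share was 11.6% in controls, 4.79% in Dox and 7.68% in Tc.

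**Figure D2:**
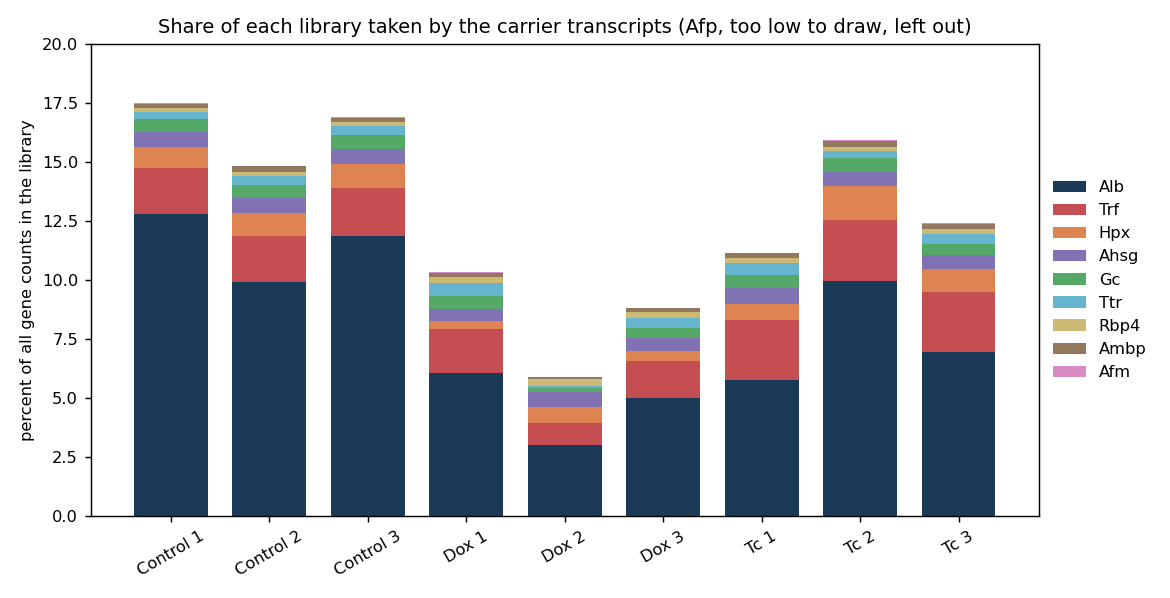
Percent of all gene counts in each library (y axis) taken by 9 carrier genes, stacked, for the 9 libraries (x axis). The stack reaches 14.8% to 17.5% in controls, 5.91% to 10.3% in Dox and 11.2% to 15.9% in Tc, and most of the change in height is Alb.

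Afm encodes afamin, a vitamin E binding relative of albumin. It had 4515, 2643 and 3921 normalized counts in controls, 2591, 669 and 1680 in Dox and 2626, 3832 and 2709 in Tc. Every Dox library was below every control and every Tc library, though Dox library 1 was near the lowest of each, and the spread within Dox was 3.87-fold. The log2 difference of Dox from controls was -1.33 (SE 0.45, limma adjusted p = 0.0984; DESeq2 adjusted p = 0.048), and -1.39 with libraries 1 and 2 only (limma adjusted p = 0.584). Without Dox library 1 limma called it (adjusted p = 0.0195). Without Dox library 2 the difference was -0.79 (limma adjusted p = 0.0752).

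Gc encodes the vitamin D binding protein. Its counts were 57843, 54313 and 62463 in controls, 57927, 15756 and 40978 in Dox and 54493, 66312 and 49871 in Tc. Dox library 1 lay among the controls and Dox library 2 held 3.68-fold less than Dox library 1, so the groups overlapped. The log2 difference of Dox from controls was -0.80 (SE 0.45, limma adjusted p = 0.275) and was -0.25 without Dox library 2. It was -0.89 with libraries 1 and 2 only (limma adjusted p = 0.686).

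Afp encodes alpha-fetoprotein, the main plasma protein of the fetal liver, which is silenced after birth. It rested on 13, 24 and 20 reads in controls, 7, 4 and 11 in Dox and 22, 16 and 16 in Tc. In normalized counts this was 13.8, 21.2 and 25.4 in controls, 7.37, 4.6 and 9.68 in Dox and 21.5, 14.4 and 13.5 in Tc. All Dox libraries were below all others, at counts of a few reads where the counting error alone is wide. The log2 difference of Dox from controls was -1.37 (SE 0.38, limma adjusted p = 0.0583; DESeq2 adjusted p = 0.033). It was -1.40 with libraries 1 and 2 only (limma adjusted p = 0.573). Afp shares a fetal gene list of 12 with H19, Igf2 and Gpc3, of which 5 were tested; limma called none of them in any comparison.

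Within 500 kb of Alb, 8 genes other than the members were tested. Afp and Afm, the direct neighbours, had log2 differences between Dox and controls of -1.37 and -1.33, beside -1.52 for Alb. The genes flanking the cluster were Ankrd17 (0.53) on the side of Alb and 5830473C10Rik (-0.19) on the side of Afm. Of the 8 genes limma called 1, Ppbp, a platelet chemokine with a mean of 19.2 normalized counts (-4.55, adjusted p = 0.0114), named here after its value was seen.

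Trf and Hpx carry iron and heme. Trf, on chromosome 9 (103204001 to 103230444, minus strand), encodes transferrin, which delivers ferric iron to cells. It had 215358, 187375 and 210110 normalized counts in controls, 185468, 80707 and 140349 in Dox and 252193, 280754 and 259576 in Tc. The 3 groups did not overlap: Dox lay below the controls and Tc above them, although Dox library 1 was close to control library 2. The log2 difference was -0.67 for Dox against controls (SE 0.46, limma adjusted p = 0.355) and 0.37 for Tc against controls (limma adjusted p = 0.821). The first was -0.34 without Dox library 2 and -0.72 with libraries 1 and 2 only (limma adjusted p = 0.757). The direct difference of Dox from Tc was -1.04 (95% interval -2.08 to -0.01, limma adjusted p = 0.229; DESeq2 -0.96, adjusted p = 0.0153). With libraries 1 and 2 only, limma gave -1.12 (adjusted p = 0.755) and DESeq2 an adjusted p of 0.741.

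Trf took 1.94% to 2.00% of the library in controls and 2.53% to 2.56% in Tc, against 0.945% to 1.85% in Dox. The ratio of Alb to Trf counts, which does not depend on library scaling, was 5.10 to 6.54 in controls, 3.17 to 3.28 in Dox and 2.29 to 3.89 in Tc. In this ratio every drug-treated library was below every control, and the 3 Dox libraries were nearly alike despite a 2.38-fold spread in Alb itself. Dox library 3 was close to a mixture of libraries 1 and 2. The ratio of Alb to Gc, 17.6 to 24.4 in controls, was 10.5 to 16.2 in Dox and 10.6 to 16.5 in Tc. For Alb to Afm, Dox overlapped the controls (234, 382 and 272 against 312 to 362) and Tc, at 220 to 285, lay below them. How often ratios of other genes separate the groups was not counted.

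Hpx, on chromosome 7 (105591613 to 105600137, minus strand), encodes hemopexin, which binds free heme. Its counts were 99689, 95743 and 106043 in controls, 33377, 56726 and 39278 in Dox and 68921, 156352 and 99803 in Tc. Every Dox library was below every control and every Tc library. Among the Dox libraries Hpx was lowest in library 1 and highest in library 2, the reverse of Alb, Afm, Gc, Ttr, Trf and Ambp. The log2 difference from controls was -1.26 (SE 0.39, 2.39-fold lower, limma adjusted p = 0.0778; DESeq2 adjusted p = 0.0025), and -1.17 with libraries 1 and 2 only (limma adjusted p = 0.619; DESeq2 adjusted p = 0.409). Without Dox library 2 limma called Hpx lower (-1.47, adjusted p = 0.0261). Against Tc the difference was -1.28 (95% interval -2.17 to -0.40, limma adjusted p = 0.147; DESeq2 adjusted p = 0.00196; DESeq2 with libraries 1 and 2 only, adjusted p = 0.535).

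Haptoglobin (Hp) binds free hemoglobin as hemopexin binds heme. Its counts were 71346, 86725 and 75540 in controls, 17091, 33222 and 21809 in Dox and 39441, 105624 and 71691 in Tc. Limma called Hp lower in Dox than in controls (-1.75, SE 0.41, adjusted p = 0.0389; DESeq2 with libraries 1 and 2 only, adjusted p = 0.191). The ratio of Hpx to Hp was 1.10 to 1.40 in controls, 1.71 to 1.95 in Dox and 1.39 to 1.75 in Tc. Hp was also the tested gene with the second closest pattern to Hpx, with a Pearson r of 0.98 on log2 values over the 9 libraries.

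Transthyretin (Ttr, chromosome 18, 20665280 to 20674321, plus strand) carries thyroxine and holds the retinol binding protein, Rbp4 (chromosome 19, 38116629 to 38125281, minus strand), in plasma. Ttr had 32044, 35623 and 37008 normalized counts in controls, 55767, 6796 and 36687 in Dox and 51429, 35079 and 42251 in Tc. The Dox libraries spanned 8.21-fold, with library 1 above and library 2 far below all others, and the groups overlapped. The log2 difference of Dox from controls was -0.53 (SE 0.67, limma adjusted p = 0.623), and without Dox library 2 its sign turned (0.38). It was -0.80 with libraries 1 and 2 only (limma adjusted p = 0.773). The direction for Ttr in Dox thus rested on Dox library 2.

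Rbp4 had 20635, 19537 and 19011 normalized counts in controls, 22191, 26546 and 23105 in Dox and 21295, 15138 and 20075 in Tc. It was the one member with every Dox library above every control and every Tc library. The log2 difference was 0.28 against controls (SE 0.21, 1.21-fold, limma adjusted p = 0.408) and 0.36 against Tc (95% interval -0.12 to 0.83, limma adjusted p = 0.328). These were 0.27 and 0.43 with libraries 1 and 2 only. The ratio of Ttr to Rbp4 was 1.55 to 1.95 in controls and 2.10 to 2.42 in Tc. In Dox it was 2.51, 0.26 and 1.59 in libraries 1, 2 and 3.

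Ambp (chromosome 4, 63143275 to 63154799, minus strand) encodes a precursor that is split into alpha-1-microglobulin, a lipocalin that binds heme, and the protease inhibitor bikunin. Its counts were 19784, 20808 and 19272 in controls, 18699, 6314 and 13957 in Dox and 20353, 29247 and 24341 in Tc. The Dox libraries were all below the controls, by little in library 1, and below all Tc libraries. The log2 difference was -0.76 against controls (SE 0.37, limma adjusted p = 0.216) and -1.05 against Tc (95% interval -1.90 to -0.19, limma adjusted p = 0.175). Without Dox library 1 limma called Ambp lower in Dox than in Tc (adjusted p = 0.0313). Without Dox library 2 the differences were -0.30 against controls and -0.59 against Tc (limma adjusted p = 0.356 and 0.174). From libraries 1 and 2 only the difference from controls was -0.90 (limma adjusted p = 0.639).

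Ahsg (chromosome 16, 22891277 to 22899449, plus strand) encodes fetuin-A, which binds calcium phosphate. It had 71076, 60486 and 70282 normalized counts in controls, 49011, 55709 and 48675 in Dox and 65644, 64581 and 59020 in Tc. Its Dox libraries spanned 1.14-fold, the least of the 10 members, and all lay below the other 6 libraries. The log2 difference from controls was -0.39 (SE 0.26, limma adjusted p = 0.337; DESeq2 adjusted p = 0.0114) and from Tc -0.30 (95% interval -0.89 to 0.28, limma adjusted p = 0.477). The difference from controls was -0.33 with libraries 1 and 2 only (limma adjusted p = 0.821; DESeq2 adjusted p = 0.71).

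**Figure D3:**
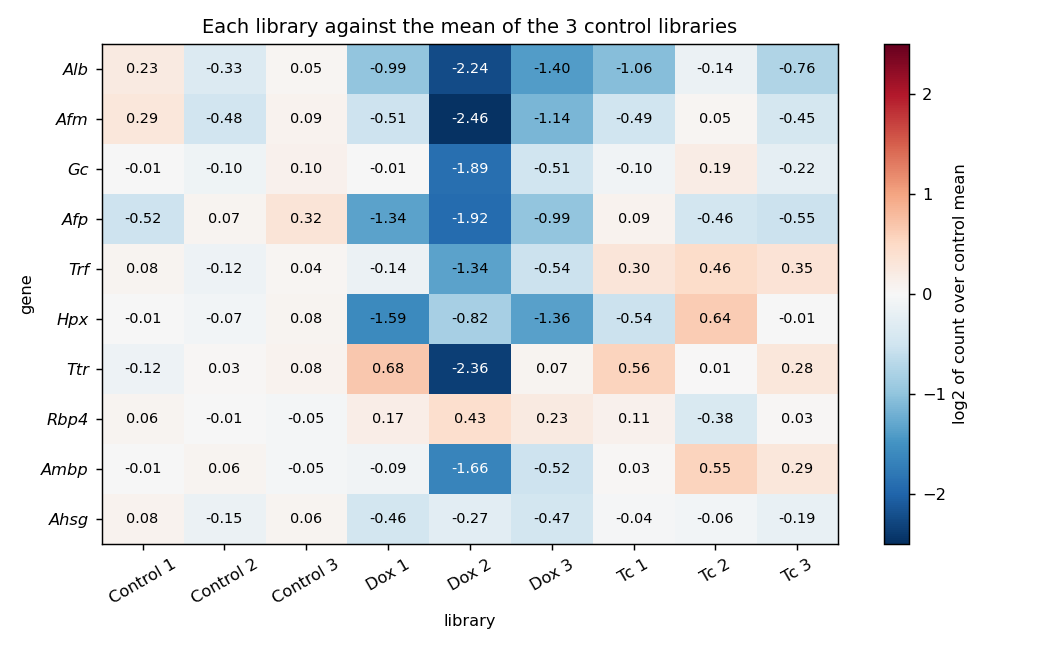
Log2 of each library's normalized count over the mean of the 3 controls (colour and number) for the 10 carrier genes (rows) in the 9 libraries (columns). Dox library 2 holds the lowest value of 7 genes, down to -2.46 for Afm, while Hpx is lowest in Dox library 1 (-1.59) and Rbp4 is highest in Dox library 2 (0.43).

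Counted over the members, 9 of 10 had a lower mean log2 value in Dox than in controls, with a median log2 difference of -0.78, against a median of 0.00 and 50% lower over all 12100 genes. Limma called 0 of the 10 in Dox against controls, where it called 5% of all genes. At an unadjusted p under 0.05 limma gave 3 (Afm, Hpx and Afp), a rule met by 29.1% of all genes. DESeq2 called 4 of the 10 lower (Alb, Afm, Hpx and Afp), a call made for 6.07% of all genes, and passed 5 under the adjusted p alone, as it did 18% of all genes, while edgeR called 0, against 5.52% of all genes. With libraries 1 and 2 only, limma and DESeq2 both called 0 of the 10, where limma called 0% and DESeq2 1.19% of all genes; unadjusted p-values under 0.05 numbered 0 by limma, where 8.6% of all genes had one, and 2 by DESeq2 (Alb and Hpx), where 10.5% had one. A total of 7 members had all Dox libraries below all controls, as had 17.1% of all genes, and Rbp4 had all above, as had 16.1%. By share of the library 5 members (Alb, Afm, Hpx, Trf and Afp) had all Dox libraries below all controls, as had 11.4% of all genes, because Ahsg and Ambp then overlapped. Dox library 2 was below every control for 9 members, a position that 43.4% of all genes shared.

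For Tc against controls, 6 members were lower and 4 higher, with a median log2 difference of -0.06. Limma, DESeq2 and edgeR called 0 of the 10, against 0.165%, 1.58% and 0.174% of all genes. At an unadjusted p under 0.05 limma gave 0 members, where 11.7% of all genes passed. All log2 differences other than that of Alb lay between -0.26 and 0.37, and the narrowest 95% interval was that of Rbp4, from -0.56 to 0.40. Trf was the only member whose Tc libraries did not overlap the controls, all being higher, as were those of 15.8% of all genes.

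Dox and Tc, the only pair of compounds, were compared at the same dose and time. Limma called 0 of the 10, against 0.215% of all genes, and edgeR called 0, as over all genes (0%). At an unadjusted p under 0.05 limma gave 5 (Afm, Afp, Trf, Hpx and Ambp), a rule met by 21.7% of all genes. DESeq2 called Hpx alone lower in Dox, a call made for 2.6% of all genes, and 0 of the 10 with libraries 1 and 2 only, against 0.264% of all genes. Under the adjusted p alone it passed 2 (Hpx and Trf), as it did 8.78% of all genes. For 6 members every Dox library was below every Tc library, as for 12.4% of all genes, and Rbp4 lay above, as did 12.2%. By share of the library the first count was 5, without Ahsg, as for 8.28% of all genes. The median log2 difference of the members was -0.97. For Alb the difference was -0.89 with an interval from -2.57 to 0.79, for Gc -0.76 from -1.79 to 0.28 and for Ttr -0.82 from -2.35 to 0.71. These intervals hold both no difference and large ones. Over all tested genes, deviations of same-numbered Dox and Tc libraries correlated weakly, which does not show a pairing. When that number entered the limma model as a replicate block the lowest adjusted p of a member was 0.175 (Hpx).

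**Figure D4:**
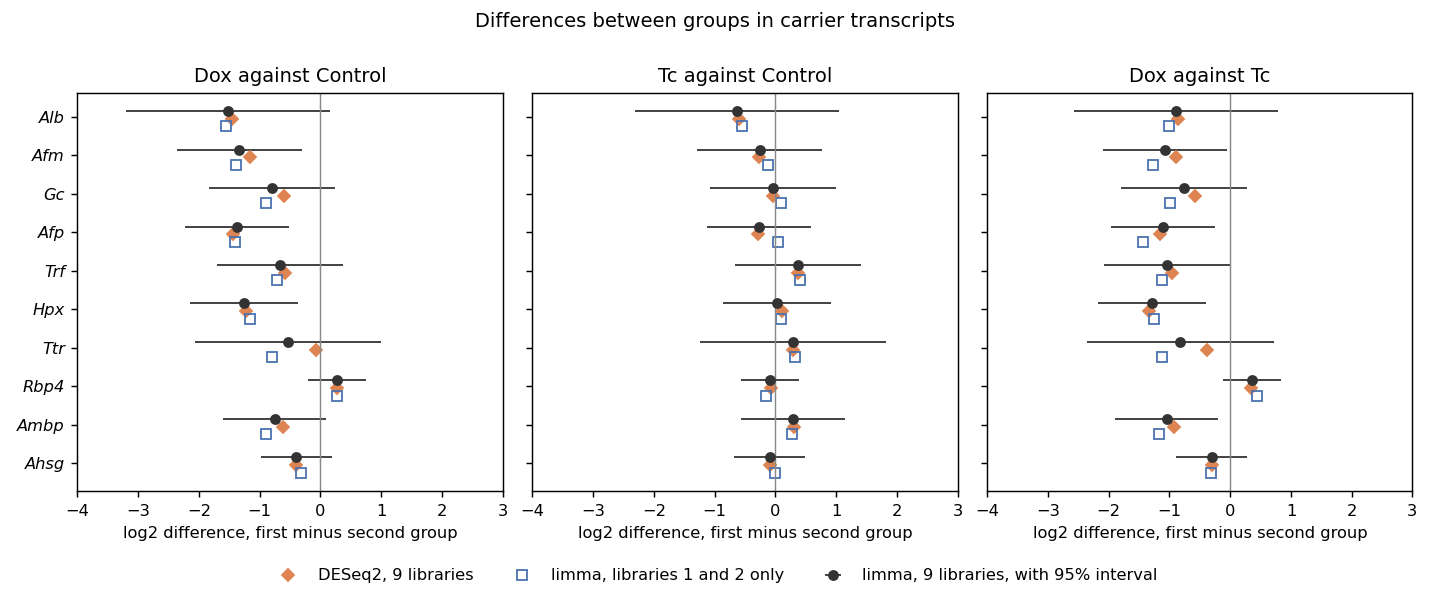
Log2 difference between groups (x axis, first minus second group) of the 10 carrier genes in the 3 comparisons, by limma with 95% interval (filled circles), DESeq2 (diamonds) and limma on libraries 1 and 2 only (open squares). For Dox against controls the limma intervals of Afm, Afp and Hpx exclude 0 before adjustment, the limma and DESeq2 values differ most for Ttr (-0.53 and -0.08), and the Tc values lie near 0 apart from Alb (-0.64).

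Per kilobase of exon, Alb was the highest member and Afm and Afp the lowest in each of the 9 libraries. In controls Alb had a mean of 514040 normalized counts per kb, followed by Hpx (67039) and Trf (61530.4), whose ranges overlapped. Next came Gc (31548), Ahsg (30624) and Ttr (29420), whose ranges overlapped, and then Rbp4 (14689) and Ambp (14162), whose ranges overlapped too. Afm had 1216 and Afp 5.98. In Dox the order after Alb was Trf (40816), Hpx (28771), Ttr (27895), Ahsg (23273), Gc (20715) and Rbp4 (17831), each overlapping the next. Hpx held rank 2 in every control and ranks 6, 2 and 4 in Dox libraries 1, 2 and 3. In Tc, Trf (79571) stood before Hpx (72287) with overlapping ranges.

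Members varied together to differing degrees. As a description over 9 libraries that include the near-mixtures and 3 groups, the Pearson r on log2 values was 0.97 for Trf with Ambp, 0.95 for Alb with Afm, 0.95 for Afm with Gc and 0.94 for Gc with Ambp. Rbp4 was negative with each of the other 9, from -0.49 with Ttr to -0.85 with Ambp. Ttr with Hpx gave 0.03 and Ttr with Ahsg 0.06. Over libraries 1 and 2 alone (n = 6) Trf with Ambp gave 0.97 and Alb with Afm 0.94.

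The genes closest in pattern to each member were sought among the 9379 genes averaging 50 normalized counts or more, by the same r over 9 libraries. For Alb they were Nicn1 (0.99), Ctsb (0.98), a lysosomal protease, and Tmem94 (0.98). Gc went with Lipa, lysosomal acid lipase, Ttr with Elovl6 (fatty acid elongation) and Hao1 (glycolate oxidation), and Ambp with Ppib, a cyclophilin of the endoplasmic reticulum. Afm went with Ninj1 and Masp1, a protease of the lectin pathway of complement, and Rbp4 with Gorasp1 and Rpl29. Trf went with Fzd4, Hpx with Ly75 and Ahsg with Trim25.

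Of 17 other carriers and plasma proteins of hepatocytes, 16 were lower in Dox than in controls, against 50% of all genes. Among the 17, limma called 6 lower in Dox and 0 higher (Hp, A1bg, Itih1, Itih3 and Itih4 among the 6), against 5% of all genes. DESeq2 with libraries 1 and 2 only called 3 lower, against 1.19% of all genes. The median log2 difference was -1.11, which is the value of Fabp1. Fabp1 had 3920, 31.1 and 2571 normalized counts in Dox libraries 1, 2 and 3, against 1296 to 1669 in controls. Its lower mean thus rested on Dox library 2, and DESeq2 gave 0.55 for it. A1bg, a plasma protein of unsettled function, had 1345, 136 and 750 normalized counts in controls, 1.05, 2.30 and 1.76 in Dox and 3.91, 1141 and 450 in Tc. Limma called it lower in Dox (adjusted p = 0.038), with a fitted size that depends on the pseudocount at such low Dox values, and Tc library 1 was low too. Itih4, an acute phase relative of the inter-alpha-inhibitor heavy chains that bikunin binds, fell with a log2 difference of -2.5 (limma adjusted p = 0.0241). In Tc against controls and in Dox against Tc limma called 0 of the 17. DESeq2 called 0 and 7 there, against 1.58% of all genes and, for lower in Dox than in Tc, 2.6%. With libraries 1 and 2 only it called 0 and 0.

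Receptors and handling partners of the carriers numbered 18, of which 16 were tested. In Dox against controls limma called 5% of all genes. Limma called 2 lower in Dox than in controls, Stab1 (-1.63, adjusted p = 0.00821) and Stab2 (-1.22, adjusted p = 0.00468), scavenger receptors of sinusoidal endothelium that are also in the endothelial marker list. Tfr2, a transferrin receptor of hepatocytes that senses iron, was lower under the adjusted p alone (-0.72, adjusted p = 0.0265; DESeq2 with libraries 1 and 2 only, adjusted p = 0.281). Hmox1, heme oxygenase, had 185, 2083 and 816 normalized counts in Dox against 181 to 303 in controls and 171 to 228 in Tc, so Dox libraries 2 and 3 were above all others and Dox library 1 was not. Limma did not call it (1.55, adjusted p = 0.192); DESeq2 did (adjusted p = 0.0101), but with libraries 1 and 2 only its adjusted p was 0.326. DESeq2 called 4 genes of the list lower, a call made for 6.07% of all genes. Among them were Lrp1, a receptor that takes up hemopexin bound to heme (-1.06, adjusted p = 0.00757), and Cd163, the macrophage receptor for haptoglobin bound to hemoglobin (-1.73, adjusted p = 0.0176). Their adjusted p by DESeq2 was 0.401 and 0.48 with libraries 1 and 2 only. The albumin recycling receptor genes Fcgrt (-0.24, adjusted p = 0.359) and B2m (-0.54, adjusted p = 0.371) were not called.

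Liver-enriched transcription factors, which drive hepatocyte genes including Alb, numbered 22 and none was called by limma in any comparison. In Dox against controls DESeq2 called 0 of them too; 10 were lower and 12 higher, with a median of 0.17. Under the adjusted p alone limma passed Foxa2 lower (-0.87, adjusted p = 0.0175) and Tef (0.78, adjusted p = 0.0316) and Creb3l3 (0.53, adjusted p = 0.0456) higher. The share of all genes that limma passed under the adjusted p alone is not given here, so these are not set against a background. With libraries 1 and 2 only, the adjusted p by DESeq2 of Foxa2, Tef and Creb3l3 was 0.328, 0.411 and 0.517. The most abundant was Hnf4a, with 11276, 9779 and 9993 normalized counts in controls, 9123, 20158 and 12866 in Dox and 9348, 9118 and 9827 in Tc. Cebpa, another activator of Alb, had 6993, 1936 and 4907 in Dox against 4190 to 5094 in controls. DESeq2 called Onecut1 lower in Dox than in Tc (adjusted p = 0.00506), a call made for 2.6% of all genes. With libraries 1 and 2 only its adjusted p by DESeq2 was 0.461.

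Positive acute phase genes are those that inflammation raises in hepatocytes. Of 24 tested, which include Hpx, Hp, Itih3 and Itih4, limma called 12 lower in Dox than in controls and 0 higher, against 5% of all genes. The median log2 difference was -1.78. DESeq2 with libraries 1 and 2 only called 5 lower, against 1.19% of all genes. With all libraries DESeq2 called 19 lower, a call made for 6.07% of all genes, and Hamp higher (1.88, adjusted p = 0.0144, and 0.385 with libraries 1 and 2 only). Saa1 had 16764, 23519 and 17981 normalized counts in controls, 281, 36.8 and 190 in Dox and 1695, 30975 and 13224 in Tc. Saa1, Saa2 and Apcs fell in Dox, with log2 differences from controls of -7.24, -8.4 and -3.21 (limma adjusted p = 0.0103, 0.015 and 0.0274). The acute phase list summed to 294762 to 307697 normalized counts in Dox and 897312 to 1035953 in controls. In Tc it ranged from 439004 in library 1 to 1291386 in library 2, the Tc libraries that also held the lowest and highest Alb and Hpx. Hpx is itself part of this sum.

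**Figure D5:**
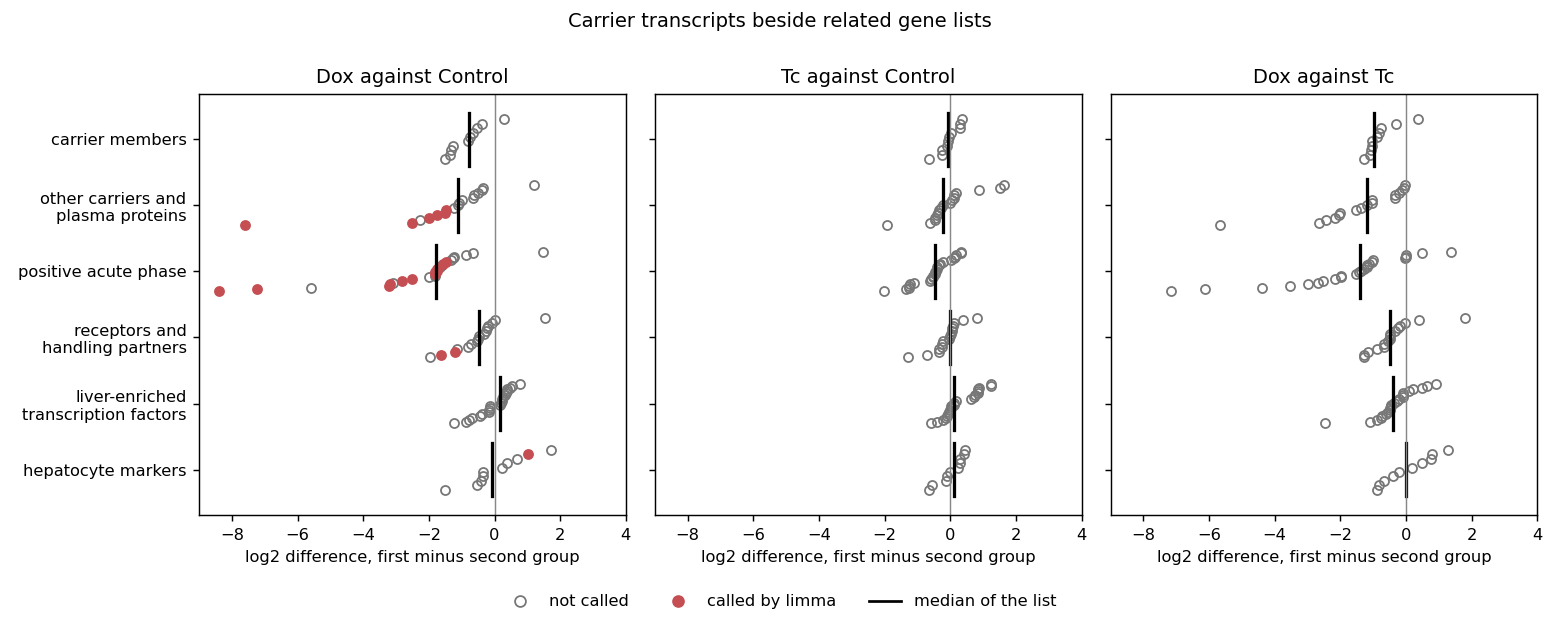
Log2 difference (x axis, first minus second group) of each tested gene (points, filled red where limma called it) in the carrier list and 5 related lists (rows), for the 3 comparisons, with the list median as a bar. In Dox against controls the medians are -0.78 for the carrier list, -1.11 for other carriers and plasma proteins, -1.78 for acute phase genes and 0.17 for transcription factors.

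Of the 10 hepatocyte markers, a list that contains Alb and Ttr, limma called G6pc higher in Dox (1.01, adjusted p = 0.015; DESeq2 with libraries 1 and 2 only, adjusted p = 0.119) and no other. Their median log2 difference between Dox and controls was -0.07. DESeq2 called G6pc and Tat higher and Alb lower, the last a call made for 6.07% of all genes. For Tat it gave 2.27 with an adjusted p of 0.00626, and an adjusted p of 0.281 with libraries 1 and 2 only. Markers of other cells moved as well, where limma called 5% of all genes and 50% were lower in Dox than in controls. Kupffer cell markers were lower in Dox for 11 of 11 tested and called by limma for 3 (Adgre1, Clec4f and Csf1r), and their sum was 2800 to 9575 in Dox, 9989 to 18182 in controls and 4923 to 9633 in Tc. Erythroid genes were called lower for 4 of 6 (Hba-a1, Hba-a2, Hbb-bt and Slc4a1), with sums of 763 to 2495 in Dox, 1535 to 6078 in controls and 1334 to 2126 in Tc. Endothelial markers summed to 3094 to 3466 in Dox, 6287 to 6512 in controls and 4800 to 5554 in Tc, and stellate markers to 3752 to 5218, 4497 to 4740 and 4423 to 5118, with 0 of 9 called. Among 4 tested neutrophil markers limma called Mpo lower in Dox, and among 3 tested cholangiocyte markers Sox9 higher. The part of these cells in the carrier differences was not tested.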

How the data were processed

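Livers were frozen and ground, and total RNA was made into directional libraries and sequenced single-end on a NextSeq500. The authors trimmed the reads with cutadapt, aligned them to mm10 with STAR (2.7.11ac per the submitters' processing notes), counted them per gene with HTSeq 2.0.5 and normalized the counts with DESeq2 1.42.0. The deposited values are these normalized counts, a count-scale signal, for 32285 identifiers in 9 libraries. All values (100%) were whole multiples, within 0.01, of the worth of 1 read in their library, so the reads could be recovered. Symbols and coordinates came from GENCODE M21 (32158 identifiers), promoters from RefSeq on GRCm38.p6.

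The 12100 genes averaging 10 normalized counts or more were tested with limma 3.58.1 (trend, R 4.3.3) on log2(value + 1), in 1 model of the 9 libraries, with Benjamini-Hochberg adjustment; the pseudocount makes differences of low genes smaller. Called means an adjusted p under 0.05 and a fold over 2. DESeq2 1.42.0 and edgeR 4.0.16 on recovered reads were alternatives. Others changed the pseudocount, filter, scaling, samples or block, or left out libraries. Each gene's share is its percent of all counts in the library. Scripts were tested on simulated data. Depth was 8250804 to 10912338 reads in controls, 7426136 to 10330238 in Dox and 10216627 to 12183041 in Tc, which leaves counting error small for all members but Afp.

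Library deviations from group means correlated between same-numbered Dox and Tc libraries (r = 0.29, 0.32 and 0.18) but not between controls and either (r from -0.08 to 0.06). The library number was therefore tried as a replicate block, from the data and not from the labels. Deviations sum to 0 within a group and library 3 was close to a mixture, so the 3 r values are not independent of each other. They do not show that Dox and Tc libraries were paired. The members and gene lists were chosen with earlier results of these data known. Genes named outside the members are those called in their list, up to 3 by size per comparison, or the 2 most abundant where none was called, together with the 3 genes closest in pattern to a member. A few genes of known roles were added after their values were seen (Tfr2, Hmox1, Lrp1, Cd163, Fcgrt, B2m, Foxa2, Tef, Creb3l3, Onecut1, Tat, Cps1, Apob and Hamp). Some genes that this rule would name are not reported here.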

Additional observations from a re-analysis of the deposited data

Results flagged for a closer look

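Trf and Ambp were each lower than the control mean in all 3 Dox libraries and higher than it in all 3 Tc libraries, so every library of one drug lay on the opposite side of the control mean from every library of the other. For 12.4% of all genes every Dox library lay below every Tc library. The share of all genes that also lay on both sides of the control mean was not counted. The control means were 204281 normalized counts for Trf and 19954 for Ambp. The difference of the Dox effect from the Tc effect was -1.04 on the log2 scale for Trf and -1.05 for Ambp. The direct test of Dox against Tc by limma did not pass after adjustment (adjusted p = 0.229 and 0.175), and DESeq2 gave 0.0153 and 0.0787, and 0.741 and 0.854 with libraries 1 and 2 only. Tc library 1 of Ambp (20353) lay inside the control range of 19272 to 20808.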

How the results depend on the processing

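Library 2 or 1 of Dox decided several values. Without either, Dox rested on the other and on library 3, close to a mixture of both, so p-values of those fits may be too small. Leaving out 1 library at a time, limma called 0 to 2 members in Dox against controls and 0 to 2 in Dox against Tc (the same counts under the adjusted p alone): Afm and Afp, or Afm and Ambp, without Dox library 1, and Hpx, in Dox against controls, without Dox library 2. Genes called ranged from 33 to 1500, from 1 to 221 (Tc against controls) and from 0 to 1362 (Dox against Tc), against 605, 20 and 26 with all libraries. DESeq2 called 4 members and 1134 genes, 0 and 191, and 1 and 609, with 5 members in Dox against controls and 2 in Dox against Tc under the adjusted p alone (18% and 8.78% of all genes). With no filter on low values DESeq2 called 3 members and 1214 genes, 0 and 202, and 1 and 633 (4 and 2 members under the adjusted p alone, 15.6% and 7.62% of all genes). Chosen after seeing the data, DESeq2 without Dox library 2 called 2 members and 1156 genes, 0 and 401, and 1 and 402 (4 and 3 members under the adjusted p alone, 18.8% and 6.31% of all genes). With libraries 1 and 2 only, limma called 0 genes in all 3 comparisons, and DESeq2 144, 9 and 32.

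A mean of at least 50 gave 369, 9 and 0 genes, and fits of only the 2 groups compared 333, 276 and 0. Tc against controls gave 10 genes at a pseudocount of 0.1 and 32 with no filter. Dox against Tc gave 6 at a pseudocount of 0.1, 0 at 8, 4 with no filter, 3 with the same total per library, 3 with the same total over other genes and 0 by edgeR. The replicate block gave 557, 2 and 2 genes, 0 with only Dox and Tc, and changed no member's call. The same total per library moved the median of all genes by 0.17 in Dox against controls and in Dox against Tc.

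Signs turned for Ttr without Dox library 2, where log2 differences leaving out 1 library ran from -1.14 to 0.38 in Dox against controls and from -1.42 to 0.093 in Dox against Tc, and where DESeq2 gave 0.41 and 0.11. In Tc against controls values near 0 turned: Gc from -0.16 to 0.049, Hpx from -0.28 to 0.32 (-0.019 with the same total over other genes) and Rbp4 from -0.18 to 0.069, leaving out 1 library, and with libraries 1 and 2 only Gc at 0.10 (DESeq2 0.11) and Afp at 0.038 (DESeq2 0.028). The cause was not tested. With libraries 1 and 2 only, the mean share of Alb was 11.3% in controls, 4.53% in Dox and 7.88% in Tc.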
